A study of Mus musculus with 12 samples.

Results

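Klf2, Klf3, Klf4, Klf6, Klf9, Klf10 and Klf13 are Krüppel-like factors, zinc finger proteins that regulate transcription and that have been described in the resting state of lymphocytes. They were followed here in bone marrow cells of young mice that carried a Myc transgene, a transgene for the mRNA decay factor TTP, both or neither. The members were the probe sets of an Affymetrix MOE430 2.0 array whose annotated gene symbol is one of the 7 names. All 7 genes were found, with 26 probe sets, among 18194 genes on the array, and all 7 passed the filter on low values that left 10287 genes for testing. The probe set of highest mean stands for each gene. Cells were taken from marrow of mice aged 4 to 6 weeks on magnetic beads coated for B220, the CD45R form found on B-lineage cells, and their total RNA was read on 1 array per sample. The 12 arrays form 4 groups of 3, which the labels call biological replicates: wild type, TTP (Eµ-TTP-1), Myc (Eμ-Myc, precancerous) and Myc TTP (Eμ-Myc;Eµ-TTP-1, precancerous). All groups are littermates on a background that is 94% C57BL/6. Eµ is the immunoglobulin heavy chain enhancer, which drives both transgenes in B-lineage cells.

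Krüppel-like factors bind CACCC and GC-rich elements through zinc fingers at their carboxyl end, and differ in the cofactors that their other parts recruit. Klf2 keeps naive T cells quiescent and controls lymphocyte homing genes, and Klf4 restrains proliferation of B cells and acts in monocyte differentiation. Klf3 represses transcription through the corepressor CtBP, while Klf9, Klf10 and Klf13 can recruit the Sin3 corepressor. The Myc protein binds the E-box CACGTG with its partner Max, and TTP, encoded by Zfp36, attaches to AU-rich stretches of mRNAs and speeds up their decay.

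Promoter stretches are shown for the 3 members that passed the test in the Myc comparison described further on, Klf2, Klf4 and Klf6, so that the letters can be read beside the values. They come from RefSeq windows of assembly GRCm38.p6 that run from 250 bases before to 50 bases after a gene's start, and 6 of the 7 members were matched. Klf10 was not. Each stretch lies wholly before the start and is written 5′ to 3′ on the gene's strand. Capitals mark the match to the E-box CACGTG in Klf4 and Klf6, and the match to the motif of MEF2, the factor through which the kinase ERK5 is described to induce Klf2, in Klf2. The positions are chr8:72318904-72318993 on the plus strand for Klf2, chr4:55532612-55532697 on the minus strand for Klf4 and chr13:5861406-5861488 on the plus strand for Klf6.
Klf2: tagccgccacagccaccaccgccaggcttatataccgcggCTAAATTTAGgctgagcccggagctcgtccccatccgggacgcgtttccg
Klf4: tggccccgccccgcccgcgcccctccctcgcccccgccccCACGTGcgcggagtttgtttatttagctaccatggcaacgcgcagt
Klf6: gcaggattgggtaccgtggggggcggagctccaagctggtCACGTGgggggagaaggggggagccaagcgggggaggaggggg

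The match in Klf2 lies 118 to 109 bases before the start, that in Klf4 182 to 177 bases and that in Klf6 43 to 38 bases. Both strands were searched. Of 32851 windows of 27025 genes, 7.15% held CACGTG, 3.19% held the MEF2 motif, 35.7% held the GC box GGGCGG and 57.5% held CACCC. Among the 6 matched members, Klf4 and Klf6 held 1 CACGTG each and the windows of Klf2, Klf3, Klf9 and Klf13 had no match to these letters. The MEF2 motif was matched only in Klf2 among the 6. GGGCGG was found 6 times in the window of Klf3, 4 times in Klf4, 3 times in Klf13, 2 times in Klf2 and 1 time in Klf6. CACCC, the core of the element that these factors bind, was found 5 times in Klf3 and 1 time each in Klf2, Klf9 and Klf13. These are letter matches and no measurement of binding.

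The labels were checked first against the targeted genes, and 2 arrays stood apart by Myc intensity. For Myc, wild type 1 and 2 gave an intensity of 805 and 819, whereas the array labelled wild type 3 gave 6411. TTP 1 and 2 gave 1060 and 1343, whereas the array labelled TTP 3 gave 11360. It was 8163 to 15451 on the Myc arrays and 3617 to 10551 on the Myc TTP arrays, so the 2 arrays numbered 3 lay within the range of the Myc-carrying groups. Counts of called members in comparisons that use the arrays labelled wild type 3 and TTP 3 are therefore given with and without them. So are the counts for the pathway lists in Myc over wild type. Spread, correlations, markers and separate probe sets are described on all 12 arrays only. Zfp36 intensity was 892 to 1663 in wild type, 878 to 952 in TTP, 623, 647 and 1022 in Myc, and 177, 393 and 579 in Myc TTP. The Myc TTP arrays, whose label carries the TTP transgene, thus held the lowest 3 values of the 12, at -1.12 ± 0.39 (SE; limma adjusted p = 0.197) against Myc. Whether RNA of the TTP transgene carries the sequence that this probe set detects is not given, so Zfp36 does not check that label. Within groups, arrays correlated at 0.937 to 0.992 over the tested genes, and no arrays were identical. Myc 3 also stood apart from its group: it correlated at 0.994 with TTP 3 and 0.992 with wild type 3, but at 0.954 and 0.962 with Myc 1 and 2.

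The plot of the members' intensity on each array shows the 4 groups side by side. Intensities are the authors' GCRMA values on a linear scale, and differences are given on the log2 scale with the standard error of the limma fit over all 10287 tested genes, whose Benjamini-Hochberg adjusted p must be under 0.05 for a gene to be called changed. Levels of different members are not compared, since they come from different probe sets.

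**Figure D1:**
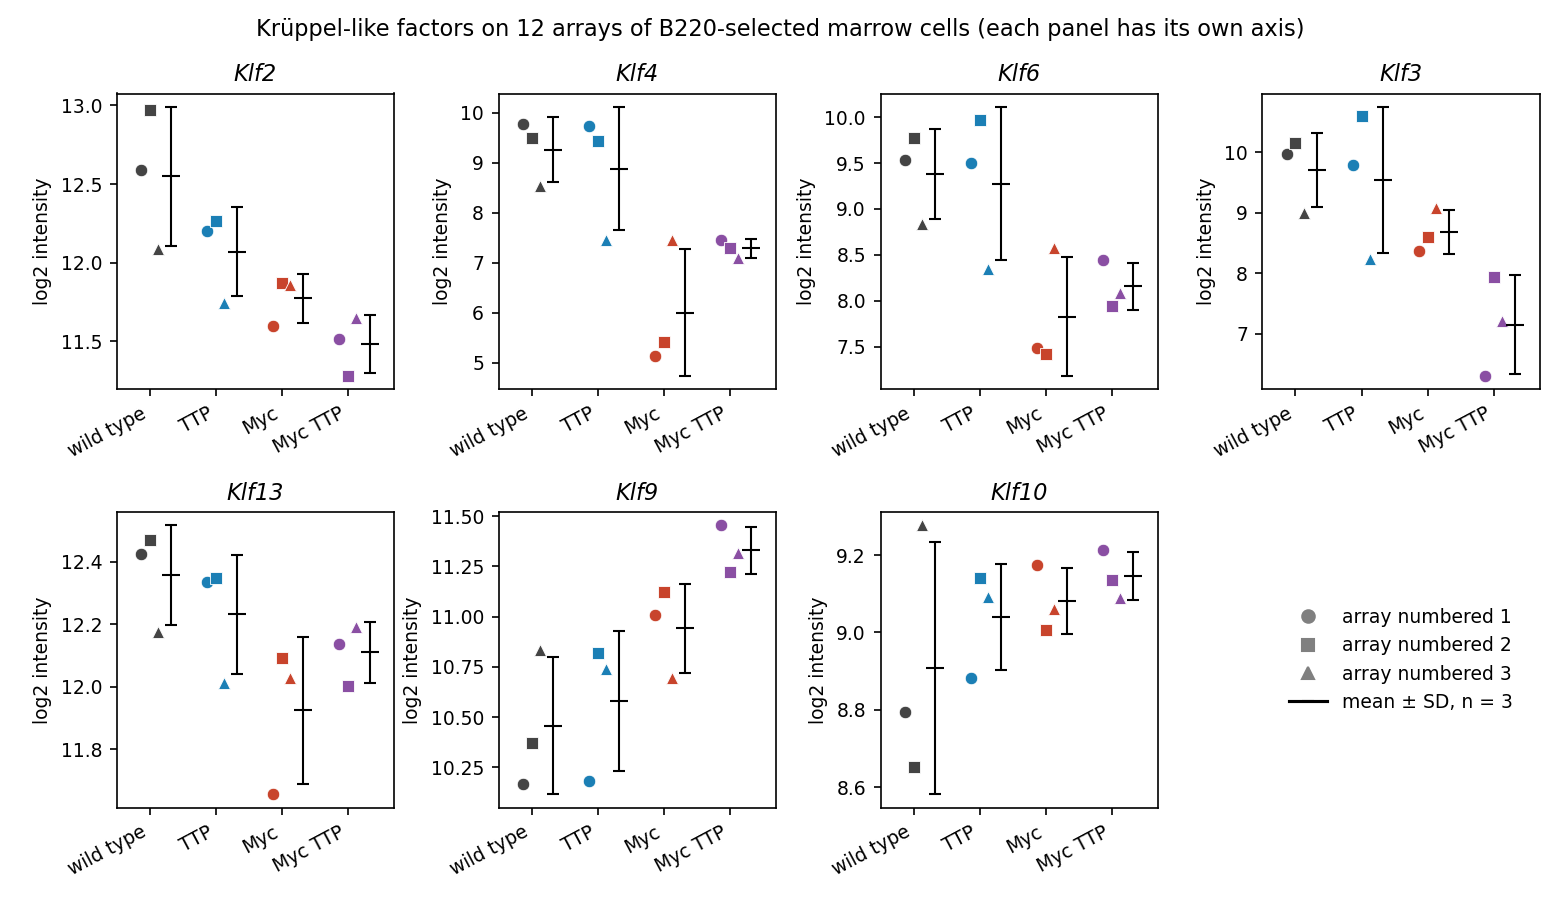
Log2 intensity of the representing probe set of each of the 7 members, with 1 point per array, shaped by replicate number and grouped as wild type, TTP, Myc and Myc TTP; black bars give the mean ± SD of each group (n = 3), and each panel has its own axis. The Klf4 group means run from 9.26 in wild type to 6.00 in Myc, while those of Klf10 stay between 8.91 and 9.15.

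The first comparison asks how the precancerous Myc cells differ from wild type. Klf2, Klf4 and Klf6 fell in the Myc group, the remaining 4 members did not pass the test, and none rose. The count of 3 of 7 members called lower stands beside 10.6% of all tested genes called lower, 0.467% called higher and 11.0% called in either direction (limma, Benjamini-Hochberg adjusted p under 0.05). The median difference of the 7 members was -0.78 and that of all tested genes was -0.21, and 65.5% of all tested genes lay lower in Myc. An unadjusted p under 0.05 was reached by 5 of 7 members (limma) and by 41.0% of tested genes. For Klf2, Klf4, Klf6 and Klf13 the Myc and wild-type arrays did not overlap. That held for 44.8% of tested genes, with 41.3% wholly lower and 3.49% wholly higher in Myc.

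Klf4 showed the largest difference among the members. Wild-type arrays read 871, 719 and 368 intensity units, and Myc arrays 35.1, 42.6 and 175. Every Myc array was lower than every wild-type array, with Myc 3 and wild type 3 the nearest to each other. The difference was -3.26 ± 0.68 (SE, n = 3 and 3), or 9.59-fold lower, with a limma adjusted p of 0.0479. Its 95% interval ran from -4.75 to -1.77. On the TTP arrays Klf4 was 850, 695 and 176, and on the Myc TTP arrays 176, 157 and 137, so that the group means ran from wild type (9.26 ± 0.65, SD of log2, n = 3) over TTP (8.88 ± 1.24) and Myc TTP (7.28 ± 0.18) to Myc (6.00 ± 1.26). Wild type and TTP overlapped in this order, and Myc TTP overlapped with Myc.

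Klf6, which is induced early when many cell types are activated or injured, followed the same ranking at a smaller size. Its intensity was 743, 872 and 456 in wild type, and 180, 171 and 380 in Myc. The groups did not overlap, and Myc 3 again lay nearest to the wild-type arrays. The difference was -1.55 ± 0.43 (SE), or 2.93-fold lower, with a limma adjusted p of 0.0479. On the TTP arrays Klf6 was 727, 1006 and 326, and on the Myc TTP arrays 348, 245 and 272. The lowest TTP array, TTP 3, lay within the range of the Myc TTP arrays and of the Myc arrays, and the Myc TTP arrays lay wholly below wild type.

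Klf2, the factor of T-cell quiescence and homing, was 6158, 8022 and 4361 in wild type, and 3095, 3740 and 3707 in Myc. The lowest wild-type array lay above the highest Myc array. The difference was -0.78 ± 0.22 (SE), or 1.71-fold lower, with a limma adjusted p of 0.0479. On the TTP arrays it was 4707, 4930 and 3431, and on the Myc TTP arrays 2930, 2490 and 3208. Group means fell in the order wild type (12.55 ± 0.44, SD of log2, n = 3), TTP (12.07 ± 0.28), Myc (11.77 ± 0.15) and Myc TTP (11.48 ± 0.19), and the arrays of each neighbouring pair from TTP onward overlapped, as did those of wild type and TTP.

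Klf3, the CtBP-recruiting repressor, did not pass in this comparison. Its intensity was 1002, 1141 and 513 in wild type and 330, 387 and 541 in Myc, and the groups overlapped through wild type 3 and Myc 3. The difference was -1.03 ± 0.58 (SE; limma adjusted p = 0.198). On the TTP arrays it was 887, 1564 and 301, and on the Myc TTP arrays 79.1, 246 and 148, the lowest values of the 12. Group means were 9.71 ± 0.62 (SD of log2, n = 3) in wild type, 9.55 ± 1.21 in TTP, 8.68 ± 0.36 in Myc and 7.15 ± 0.82 in Myc TTP.

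Of the 3 members that recruit Sin3, Klf13, known as an activator of the chemokine gene Ccl5 in T cells, was 5501, 5675 and 4625 in wild type and 3226, 4363 and 4172 in Myc. The groups did not overlap, but the difference of -0.43 ± 0.14 (SE) missed the threshold, with a limma adjusted p of 0.0621. Klf9, a glucocorticoid-responsive factor described in B-cell quiescence, was 1150, 1323 and 1824 in wild type and 2063, 2229 and 1657 in Myc. It lay on the other side, at 0.49 ± 0.21 (SE; limma adjusted p = 0.108), and the groups overlapped. Klf10, an early TGF-β response gene, was 444, 403 and 620 in wild type and 578, 515 and 534 in Myc, a difference of 0.17 ± 0.17 (SE; limma adjusted p = 0.448). Its 95% interval of -0.20 to 0.54 excluded a change of the size seen for Klf2.

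The 3 calls stood at the smallest adjusted p of this comparison, 0.0479, which many genes shared. They held without wild type 3, TTP 2, TTP 3 or Myc 3, and no gene at all was called when any one of the other 8 arrays was left out (wild type 1 or 2, TTP 1, Myc 1 or 2, Myc TTP 1, 2 or 3). With wild type 3 and TTP 3 left out, 6 members passed beside 48.3% of all tested genes. The differences were then -1.01 for Klf2 (limma adjusted p = 0.00183), -1.38 for Klf3 (0.0253), -3.63 for Klf4 (0.00193), -1.83 for Klf6 (0.00301), 0.67 for Klf9 (0.0188) and -0.52 for Klf13 (0.010), and Klf10 remained short at 0.36 (0.067). Without Myc 3, where 20.9% of tested genes passed, the 3 called members were at -3.99 for Klf4 (0.00431), -1.93 for Klf6 (0.0173) and -0.82 for Klf2 (0.0445). The call of Klf2 was lost when only the arrays of the 2 groups were fitted, and that of Klf6 with log2 of the value plus 16. With every array set to a common median, which moved the median difference of all genes from -0.21 to 0.05, no member and no other gene passed; the 7 differences kept their directions, at -3.0 for Klf4, -1.29 for Klf6, -0.52 for Klf2 and 0.75 for Klf9.

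**Figure D2:**
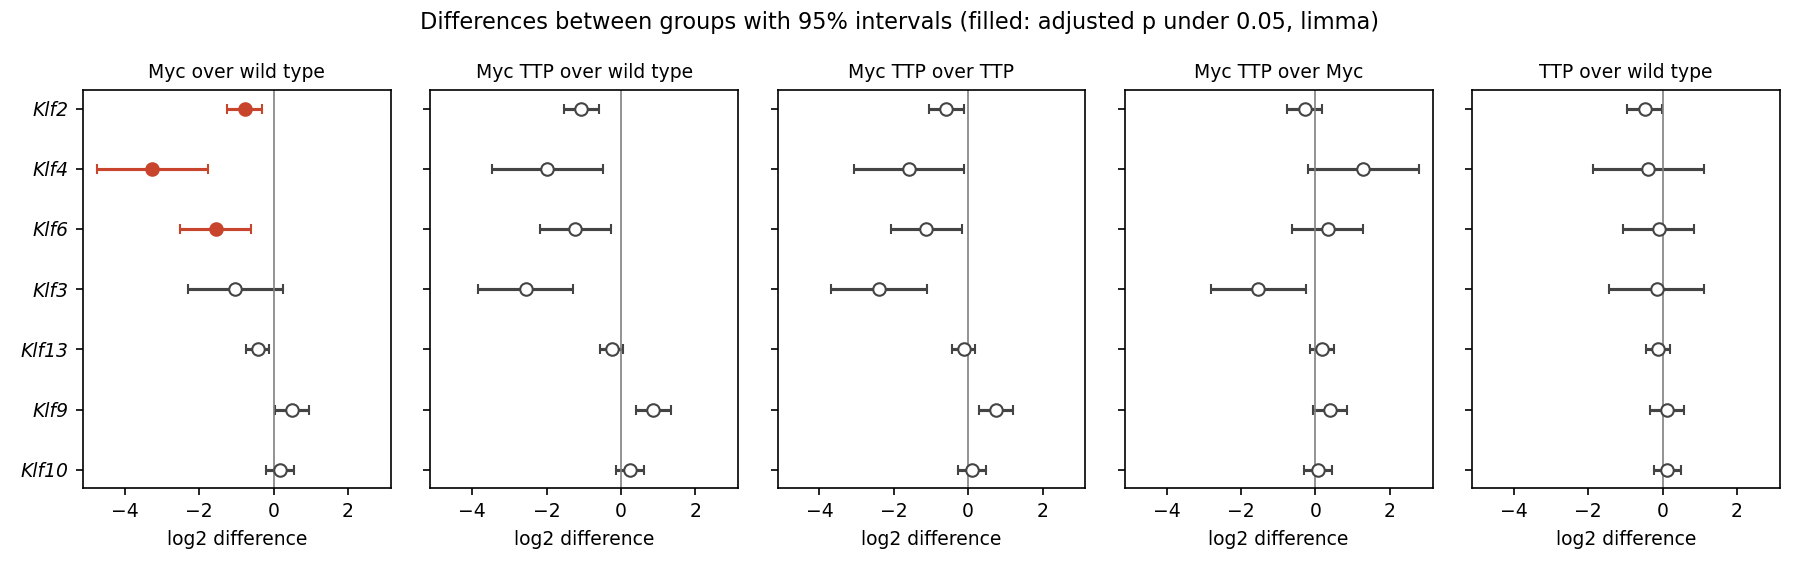
Log2 difference of each member in 5 comparisons, 1 panel each, with bars for the 95% interval of the limma fit and filled points for an adjusted p under 0.05. Klf4 has the lowest value in Myc over wild type, at -3.26, and Klf3 the lowest in Myc TTP over wild type, at -2.56, while the values of Klf10 lie near 0 throughout.

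The members with several probe sets gave the same sign in each tested one in the Myc comparison. Klf4 has 2 probe sets, at -3.26 and -2.76. The second was above the floor of log2 4 on only 6 arrays, those of wild type, TTP 1 and 2 and Myc 3. It lay below the floor on Myc 1 and 2, so its sign adds little to that of the first. Klf6 has 5, of which the 4 tested lay between -2.03 and -1.5. Klf3 has 7, of which the 5 tested lay between -1.26 and -0.63. Those at -0.95 and -0.63 were above the floor of log2 4 on only 4 arrays, all of wild type or TTP. They passed the filter through these groups alone, so their sign is not separate evidence. Klf9 has 7, of which the 5 tested lay between 0.17 and 0.98, and the 2 tested of 3 for Klf13 were -0.43 and -0.33. Klf2 and Klf10 each have 1, so no second probe set bears on them. Of the tested ones, 1 each of Klf6 and Klf9 bears the maker's suffix for probes that may match more than 1 gene. When all probe sets were tested separately none of a member passed, and the smallest adjusted p among them was 0.0607.

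**Figure D3:**
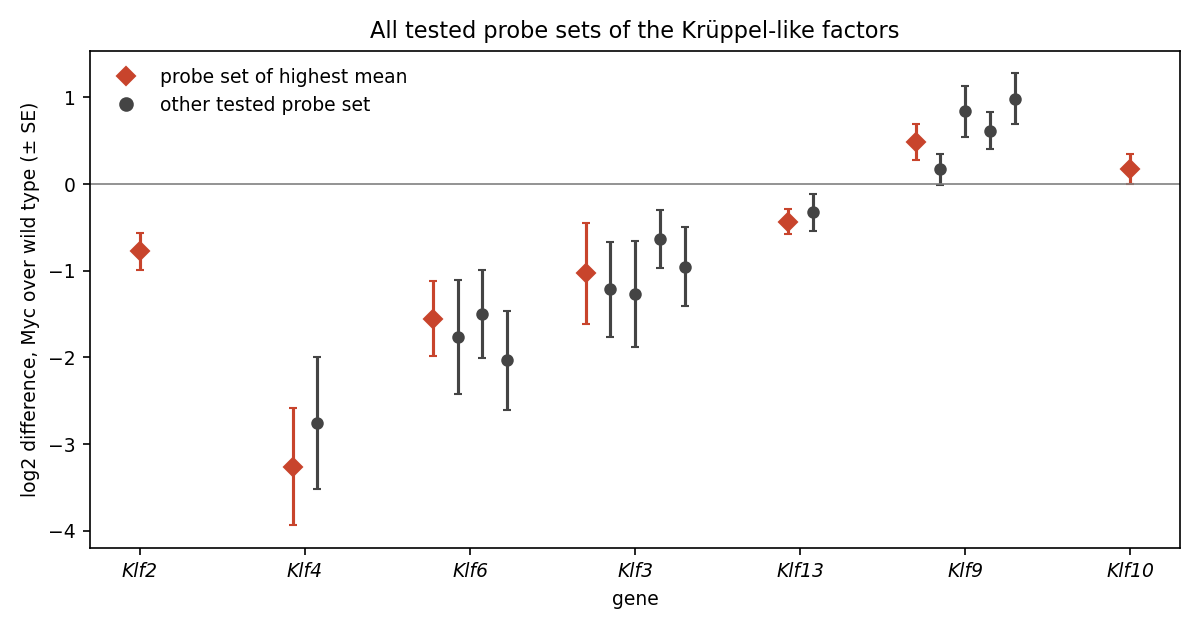
Log2 difference in Myc over wild type for each tested probe set of the 7 members, with the representing probe set marked and bars for the standard error. All probe sets of Klf4, Klf6, Klf3, Klf13 and Klf2 lie below 0 and all of Klf9 lie above it. Those of Klf3 at -0.95 and -0.63 passed the filter through wild type and TTP arrays only.

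The second comparison sets the cells with both transgenes against wild type. No member passed (limma, 0 of 7 adjusted p under 0.05, beside 0.00972% of all tested genes, which is 1 gene), although 5 of 7 had an unadjusted p under 0.05, beside 38.0% of tested genes. Klf2, Klf3, Klf4 and Klf6 lay wholly below wild type and Klf9 wholly above it; groups did not overlap for 45.6% of tested genes, with 20.6% lower and 25.0% higher. The median of the members was -1.07 and that of all tested genes 0.03.

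Klf3 had the largest difference here, with 79.1 to 246 on the Myc TTP arrays against 513 to 1141 in wild type. It came to -2.56 ± 0.58 (SE), or 5.89-fold lower, with a limma adjusted p of 0.0520. Klf2 was at -1.07 ± 0.22 (SE; adjusted p = 0.0520). Klf9 was 2805, 2388 and 2547 on the Myc TTP arrays, above all 9 others, and its difference from wild type was 0.87 ± 0.21 (SE; adjusted p = 0.0520). Klf4 differed by -1.98 ± 0.68 (SE; adjusted p = 0.0671) and Klf6 by -1.22 ± 0.43 (SE; adjusted p = 0.0730). Klf13, at 4501, 4099 and 4676, and Klf10, at 593, 562 and 544, overlapped with wild type. With wild type 3 and TTP 3 left out, 6 members passed, all except Klf13, beside 43.9% of all tested genes. Leaving out wild type 3 alone, or TTP 3 alone, gave 5 called members beside 30.0% and 28.3% of tested genes, and leaving out Myc 3 gave 4 beside 15.8%.

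Against TTP, its own reference without Myc, the Myc TTP group gave like values. No member passed (limma, 0 called among all tested genes, 36.0% with an unadjusted p under 0.05), and 5 members had an unadjusted p under 0.05. Klf3 differed by -2.39 ± 0.58 (SE; adjusted p = 0.0607), Klf9 by 0.75 ± 0.21 (0.0607), Klf2 by -0.59 ± 0.22 (0.0866), Klf6 by -1.12 ± 0.43 (0.0987) and Klf4 by -1.59 ± 0.68 (0.120). Klf2, Klf3 and Klf4 lay wholly lower and Klf9 wholly higher; groups did not overlap for 35.9% of tested genes, 5.36% lower and 30.6% higher. Without wild type 3 and TTP 3, Klf2, Klf3, Klf4, Klf6 and Klf9 passed, beside 42.9% of tested genes; the same number passed without TTP 3 alone, beside 38.4%, and 3 passed without wild type 3 alone, beside 18.5%. For Klf4 the gap was small, with 176.2 on TTP 3 and 176.1 on Myc TTP 1. This comparison shares the Myc TTP arrays with the one against wild type.

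The TTP transgene without Myc gave no called member. No gene at all was called (limma, 0 of 10287, 149 with an unadjusted p under 0.05, or 1.45%), and the 7 members had wild type and TTP arrays that overlapped, while 4.25% of tested genes did not overlap, 3.65% lower and 0.603% higher. Klf2 alone among the members had an unadjusted p under 0.05, at -0.48 ± 0.22 (SE; limma adjusted p = 1.00). Klf2 read 4707, 4930 and 3431 on the TTP arrays, against 6158, 8022 and 4361 in wild type. The labels give no shared source for arrays of the same number, and 63.6% of all tested genes had a lower mean in TTP. With the replicate number as a block in a fit of these 2 groups, added after seeing the data, no member passed and 4 of 10287 genes did. The other 6 differences lay between -0.38 for Klf4 and 0.13 for Klf10. Those of Klf3, Klf4 and Klf6 turned to 0.49, 0.33 and 0.36 without TTP 3, on which all 3 genes were lowest within the group. Without both wild type 3 and TTP 3, Klf4 was at -0.042.

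In the presence of Myc, the TTP transgene came with lower Klf3 and, on the deposited scale, higher Klf9 in non-overlapping groups, and neither passed. Klf3 was 79.1, 246 and 148 in Myc TTP against 330, 387 and 541 in Myc, a difference of -1.53 ± 0.58 (SE; limma adjusted p = 0.215). Groups lay wholly lower for 1.41% of tested genes and did not overlap for 33.7%, and the median of all tested genes was 0.27 in this comparison, or 0.01 with a common median. Of the 4 other tested probe sets of Klf3, those well above the floor gave smaller differences, at -0.53 and -0.29. Those at -0.12 and 0.02 lay below the floor of log2 4 on every Myc and Myc TTP array. They cannot show a difference between these groups. Klf9 differed by 0.39 ± 0.21 (SE; adjusted p = 0.328), and 32.3% of tested genes lay wholly higher. That difference was 0.12 with a common median and 0.16 with quantile normalization.

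Klf4 was higher by 1.28 ± 0.68 (SE; adjusted p = 0.317) in Myc TTP than in Myc, where Myc 3, at 175, overlapped with the Myc TTP arrays, at 137 to 176. Without Myc 3 the difference was 2.01 (limma adjusted p = 0.209). The other probe set of Klf4 gave 0.05. It lay below the floor of log2 4 on all Myc and Myc TTP arrays except Myc 3, so it cannot show a difference here. Klf6 differed by 0.33, Klf2 by -0.29, Klf13 by 0.19 and Klf10 by 0.06, the last of which turned to -0.20 with a common median, as Klf13 turned to -0.080. No gene was called (limma, 0 of 10287, 1966 with an unadjusted p under 0.05, or 19.1%). Without the 4 arrays numbered 3, where 14.7% of genes passed, Klf4 was the only member to pass, at 2.10 ± 0.21 (SE, limma adjusted p = 0.000495). That fit had fewer arrays per group.

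Whether the TTP difference itself depended on Myc was tested by the interaction term, and no member or other gene passed (limma, 0 of 10287; 13.1% with an unadjusted p under 0.05, and none of the 7). The largest among the members was Klf4, at 1.67 ± 0.95 (SE; adjusted p = 0.432), followed by Klf3, at -1.37 ± 0.82 (SE; adjusted p = 0.446). Without the 4 arrays numbered 3, Klf4 passed at 2.15 ± 0.30 (SE; adjusted p = 0.0131), 1 of 235 genes that did.

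Over the 12 arrays the members differed in spread. The SD of log2 intensity was 1.58 for Klf4, 1.27 for Klf3, 0.87 for Klf6, 0.48 for Klf2, 0.43 for Klf9, 0.23 for Klf13 and 0.18 for Klf10. That of Klf4 exceeded the SD of 97.6% of the tested genes, that of Klf3 95.5% and that of Klf10 11.0%. Klf4 and Klf6 had the most similar profiles (Pearson r = 0.96 over 12 arrays), Klf13 correlated with Klf4 at 0.86 and with Klf6 at 0.84, Klf2 with Klf3 at 0.81, and Klf9 ran opposite to Klf2 (-0.80), Klf3 (-0.82), Klf4 (-0.70) and Klf6 (-0.70). These correlations describe 12 arrays that share their groups, scaling and the arrays that stood apart.

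The tested genes with the profile most like a member were named by Pearson r over the same 12 arrays. For Klf4 they were Cd93 (0.993), Ppp1r16b and Plekho1, and for Klf6 they were Sorl1 (0.995), Themis2 and Txnip. Such likeness was common: 1306 tested genes had an r above 0.9 with Klf4 and 1651 with Klf6. For Klf2 they were Rgs14, Gm2a and Socs1, each near 0.955, with 65 genes above 0.9. For Klf3 they were Fth1 (0.961), Ssh1 and Cotl1, with 26 genes above 0.9. Klf9 lay nearest to Slc25a39 (0.982), Rpn1 and Isoc1, Klf13 to Prrc2b (0.971), Hpse and Inpp5k, and Klf10 to Eif2s2 (0.908), Tprkb and Ybx3.

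The wider pathway was described by 8 lists, in Myc over wild type, by the limma calls over all tested genes. Of all tested genes, 10.6% were called lower and 0.467% higher in this comparison. Of the other Krüppel-like and SP factors, 16 of 19 were on the array, 8 were tested and none was called (2 higher and 6 lower, median -0.55 beside -0.21 for all tested genes). Klf7 came nearest at -1.98 ± 0.58 (SE; adjusted p = 0.0508), from 346 to 615 in wild type to 82.4 to 214 in Myc, and Klf1, the erythroid factor, at -4.72 ± 1.66 (SE; adjusted p = 0.0686), with 8.53, 9.30 and 570 on the Myc arrays. Without wild type 3 and TTP 3, 3 of the 8 fell, Klf7 and Klf1 among them, where 48.3% of all tested genes were called. Of the 5 homing genes described as Klf2 targets, Cxcr3, a chemokine receptor, fell, at -2.94 ± 0.56 (SE; adjusted p = 0.0479), and the other 4 did not pass. Cxcr3 was 141 to 295 in wild type and 16.5 to 56.5 in Myc.

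Of the other lymphocyte quiescence factors, the list with the most tested genes, 7 of 17 fell and none rose, with a median of -1.08. They were Btg1, Btg2, Foxo1, Foxo3, Slfn1, Slfn2 and Bach2. Beside this, 10.6% of all tested genes were called lower, and the median of all tested genes was -0.21. Btg1 and Btg2, antiproliferative adaptors of mRNA deadenylation, fell by 1.54 and 1.08 on the log2 scale. Foxo1, a forkhead factor that controls B-cell development, fell by 1.76, from 2177 to 3987 in wild type to 610 to 1654 in Myc. Slfn1, a Schlafen family gene linked to T-cell quiescence, fell from 129 to 235 in wild type to 6.40, 6.51 and 56.0 in Myc. Myc 1 and 2 lay below the floor of log2 4, so the size of its fall is uncertain. All 4 had a limma adjusted p of 0.0479. Without wild type 3 and TTP 3, 13 of the 17 fell, beside 48.3% of all tested genes called.

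Among 8 tested cell cycle brakes, Cdkn1c, an inhibitor of cyclin-dependent kinases, was called higher and none was called lower. Of the 8, 7 lay lower without a call, and the median was -0.74 beside -0.21 for all tested genes. For Cdkn1c the values lay near the floor. It was 15.7, 13.3 and 19.2 in wild type and 75.2, 36.8 and 23.7 in Myc. Wild type 1 and 2 lay below the floor of log2 4, so the size of its rise is uncertain. Without Myc 1 its log2 difference fell from 1.34 to 0.89. It was not called when the fit held only the 2 groups compared, nor with log2 of the value plus 16, at 0.85. Of 11 corepressors and coactivators, Kat2b, a histone acetyltransferase, fell (-1.14) and the others did not pass. Of 7 genes of the ERK5 and MEF2 route to Klf2 and Klf4, Mef2a (-1.46) and Mef2d (-0.48) fell; Mef2d lay at 0.12 when genes were represented by their probe set of largest SD. Of 7 TGF-β genes upstream or downstream of Klf10, Tgfb1 and its receptor Tgfbr1 fell, each by 1.02. Of 7 ubiquitin ligases described for Krüppel-like factors none was called, with Smurf2 nearest at -0.65 (adjusted p = 0.0711) and Itch at -0.61 (adjusted p = 0.0809). The listed calls had a limma adjusted p of 0.0479, and none of the 8 lists held a called gene under quantile normalization or with a common median. In the other comparisons no gene of these lists was called. Without wild type 3 and TTP 3, 48.3% of all tested genes were called in Myc over wild type. Called lower there were 6 of the 8 brakes, 5 of the 11 corepressors and coactivators and 5 of the 7 ubiquitin ligases. So were 6 of the 7 TGF-β genes, 4 of the 7 ERK5 and MEF2 genes and 4 of the 5 homing genes. Called higher were 1 brake and 1 of the corepressors and coactivators.

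Markers of the sorted cells and of other bone marrow cells moved with these results. The 7 B-lineage markers used, Cd79a and Cd79b among them, lay above the floor of log2 4 on all 12 arrays, with a mean log2 level of 13.15 to 13.69 in wild type, 12.83 to 13.52 in TTP, 12.42 to 13.02 in Myc and 12.66 to 12.82 in Myc TTP, and 4 of 7 fell in Myc over wild type. Granulocyte markers were also high: 7 of 11 fell in Myc over wild type, with a median difference of -4.34. Beside these counts, 10.6% of all tested genes were called lower, and the median of all tested genes was -0.21. Their summed intensity was 227367 to 316130 in wild type, 179486 to 357110 in TTP, 106038 to 159799 in Myc TTP, and 9284, 23861 and 213242 on Myc 1, 2 and 3. None of the 11 was below the floor of log2 4 on any array except Myc 1, where 4 were. In such bulk samples fewer cells of a type and less RNA per cell cannot be told apart.

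Other marker lists held called genes too. In Myc over wild type 3 of 8 monocyte and macrophage markers and 6 of 7 of plasmacytoid dendritic cells, which carry B220 themselves, fell. So did 2 of 7 NK cell and 1 of 6 erythroid markers, and none of these lists held a gene that rose. These counts stand beside 10.6% of all tested genes called lower. Those of the NK cell and erythroid lists are too small to set apart from that share. The summed monocyte and macrophage intensity was 29432 to 52445 in wild type, 19959 to 55832 in TTP, 3257 to 22456 in Myc and 10605 to 19977 in Myc TTP. The 2 tested T-cell markers split, 1 higher and 1 lower, with none called, and the T-cell list summed to 89.6 to 144 in wild type, 114 to 181 in TTP, 113 to 124 in Myc and 181 to 230 in Myc TTP. Klf4 and Klf6 followed the markers: over 12 arrays the correlation of their log2 intensity with the mean log2 of the granulocyte list was 0.94 and 0.88, with the monocyte list 0.96 and 0.98, and with the B-lineage list 0.94 and 0.97. With the plasmacytoid dendritic cell list it was 0.97 for each. Klf2 correlated at 0.56 with the granulocyte list, 0.75 with the monocyte list, 0.77 with the plasmacytoid dendritic cell list and 0.89 with the B-lineage list. In the same order Klf3 gave 0.45, 0.69, 0.58 and 0.77. Klf9 ran opposite, at -0.53, -0.70, -0.65 and -0.79. The part of these cell types in the differences of the members was not tested.

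**Figure D4:**
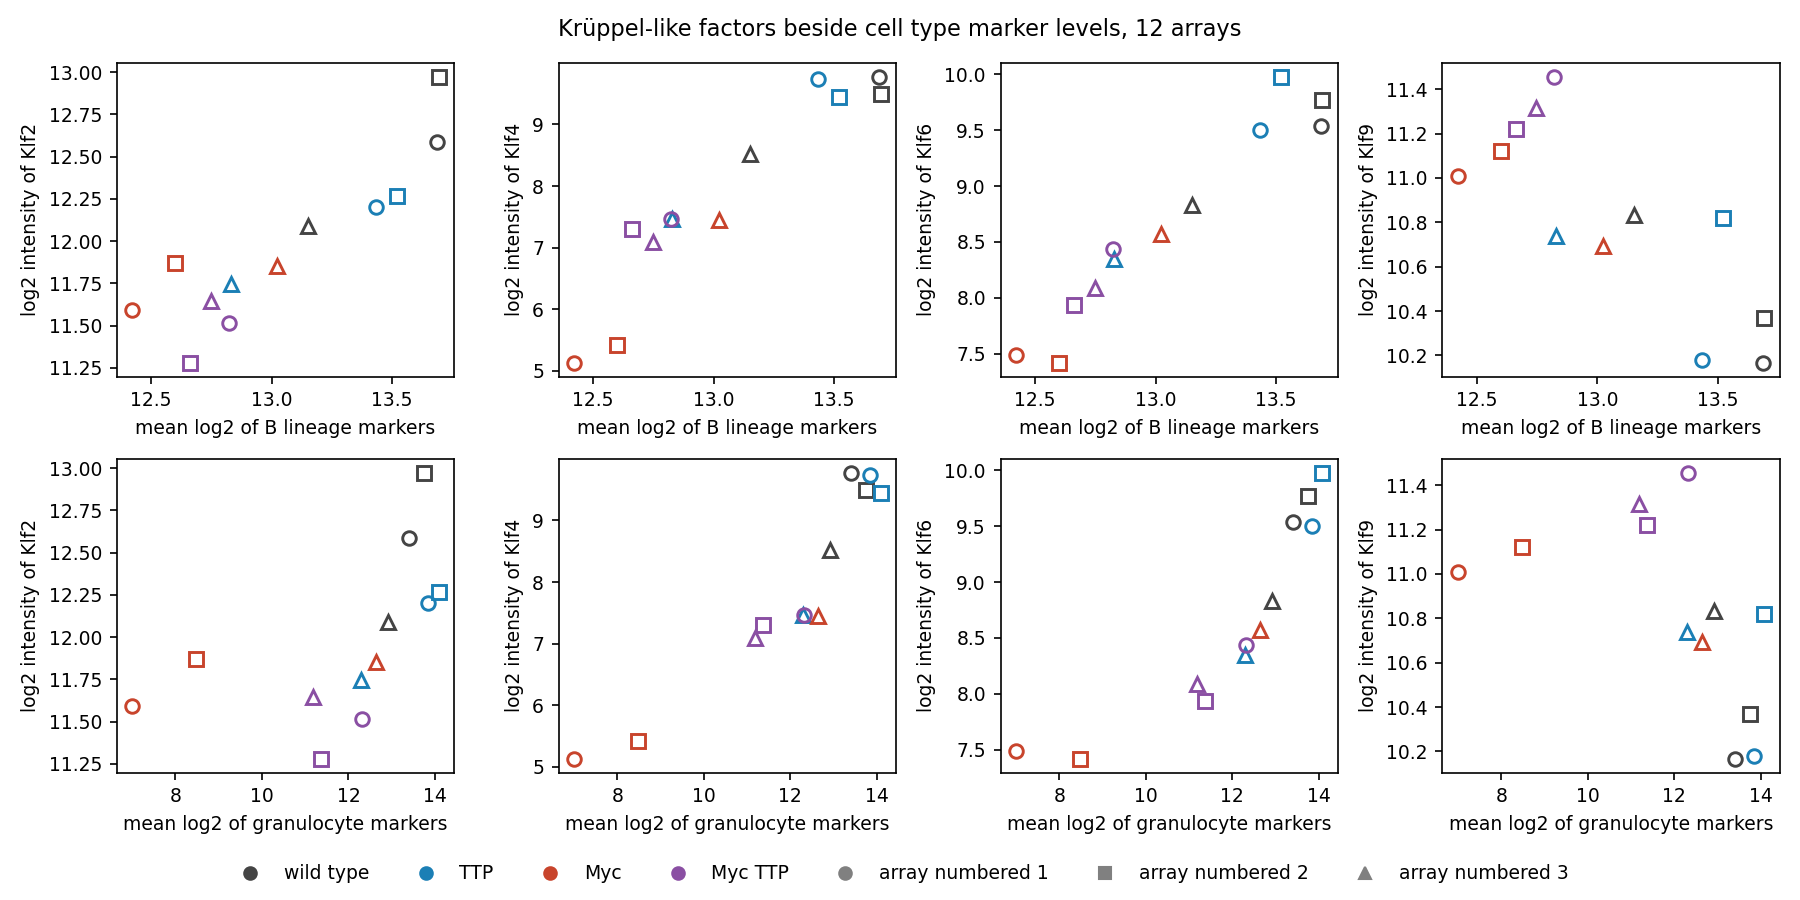
Log2 intensity of Klf2, Klf4, Klf6 and Klf9 against the mean log2 intensity of the granulocyte and of the B-lineage markers, with 1 point per array, coloured by group and shaped by replicate number. The points of Myc 1 and Myc 2 lie at granulocyte levels of 6.99 and 8.47, below all other arrays, and hold the lowest Klf4 values; the points of TTP 3 and Myc TTP 1 coincide in height for Klf4, at 176 intensity units each.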

How the data were processed

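The authors deposited GCRMA values, per the submitters' processing notes, as intensity on a linear scale (1.73 to 120125, array medians 10.9 to 13.9); the sources used here give no version and no further steps. GCRMA normalizes between arrays, so a change in total RNA per cell cannot be seen. Of 45101 probe sets, 34958 had a single annotated symbol, 932 several and 9211 none; 34754 symbols were found in RefSeq (GRCm38.p6). The deposited intensity was put on the log2 scale with no pseudocount. Genes were tested when log2 was above 4 on at least 3 of 12 arrays; 7907 were left out. The fit used limma 3.58.1 in R 4.3.3 (lmFit, eBayes with intensity trend) with 1 mean per group over the 12 arrays, which leaves 8 residual degrees of freedom, two-sided, without covariates. It was tested on simulated data. Precision is limited by the number of arrays.

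The members, lists and tests were chosen with earlier results of these data known. An item of the marker lists is not reported here. Named were all members, the 3 most alike genes of each, and from each list at most 4 called genes by smallest p, or the 2 nearest where none was called; the full 7 called quiescence genes were named after their values were seen. Residuals of same-numbered wild-type and TTP arrays correlated at 0.498, 0.664 and 0.821. Differently numbered arrays correlated as high (0.512 for wild type 2 with TTP 1, 0.433 for wild type 1 with TTP 2). The array that stood apart by Myc intensity carries the number 3 in both groups. These correlations therefore cannot show that the numbers pair the 2 groups, and the labels give no shared source. A block on these 2 groups was fitted only as an alternative. Alternatives were no filter, a floor of 6, other probe set choices, 2 other scalings, log2 of the value plus 16, other variance models, the compared groups only, a replicate block, an adjusted p under 0.01, and arrays left out.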

Additional observations from a re-analysis of the deposited data

How the results depend on the processing

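Of 1092 values of members under the alternatives, 955 kept direction and side of the threshold, 62 passed it newly, 53 no longer passed and 22 changed sign. In Myc over wild type the 3 called members became 0 with no filter, with all probe sets tested separately, with the probe set of largest SD, with quantile normalization, with a common median, without the intensity trend, without moderation and at an adjusted p under 0.01. They became 2 with the compared groups only, which lost Klf2, and 2 with log2 of the value plus 16, which lost Klf6. They became 6 when wild type 3 and TTP 3 were left out (48.3% of all tested genes called), and 6 when all 4 arrays numbered 3 were (54.7%). Leaving out 1 array gave 0 to 5, with up to 35.1% of genes. In Myc TTP over wild type the 0 called became 3 with a floor of 6 (15.8% of genes), 5 with the compared groups only (18.6%), 6 and 5 without the 2 and the 4 arrays (43.9% and 47.1%), and 0 to 5 without 1 array. In Myc TTP over TTP it became 5 and 5 without the 2 and the 4 arrays (42.9% and 45.5%), and 0 to 5 without 1 array. Myc TTP over Myc and the interaction gave 1 each without the 4 arrays (14.7% and 2.28%). TTP over wild type gave 0 throughout. The cause was not tested.

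With the replicate block, Myc over wild type gave 0 called members. The numbers of wild type and Myc arrays share only a number (residual correlations -0.434, -0.281 and -0.630). A block on the wild type and TTP arrays alone, chosen after seeing the data, gave -0.48 ± 0.12 (SE) for Klf2 with a limma adjusted p of 0.529 and called no member, but 4 of 10287 genes (0.0389%) where the fit without it called 0.

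No change of sign concerned a called difference of a member. In TTP over wild type, leaving out 1 array gave -0.021 (wild type 1) to 0.32 for Klf9, -0.70 to 0.49 (TTP 3) for Klf3, with 0.060 without wild type 2, -0.81 to 0.33 (TTP 3) for Klf4, and -0.45 to 0.36 (TTP 3) for Klf6, with 0.092 without wild type 2. Leaving out wild type 3 with TTP 3, or all 4 arrays numbered 3, gave 0.14 for Klf3 and 0.087 for Klf6. In Myc TTP over Myc, Klf10 was -0.19 with quantile normalization and -0.20 with a common median, and Klf13 -0.080 with a common median. In the interaction, Klf9 was -0.11 with the probe set of largest SD. Klf2 and Klf9 were -0.063 and -0.017 with quantile normalization. Klf2, Klf9 and Klf13 were -0.14, -0.059 and -0.013 with a common median. Leaving out 1 array gave -0.023 (wild type 2) to 0.42 for Klf2, -0.25 to 0.061 (wild type 2) for Klf10, and -0.032 (TTP 3) to 0.80 for Klf6. The alternatives for the pathway lists were added after seeing the data, and Mef2d, called lower, was 0.12 with the probe set of largest SD.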
